A study of Mus musculus with 30 samples.

Results

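The genes described here are 10 genes that are often mutated in oral squamous cell carcinoma, namely Trp53, Pik3ca, Fat1, Casp8, Hras, Nsd1, Kmt2d, Fbxw7, Ajuba and Rb1. They were chosen as recurrently mutated genes of this cancer, and their rows were found by Ensembl identifier among the 55487 genes of the count table. All 10 had enough reads to be tested, beside 17638 tested genes in all. RNA abundance was measured, and sequence changes in these genes were not analysed here.

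The samples come from mice of a chemical carcinogenesis model, whose drinking water carried 4NQO (4-nitroquinoline-1-oxide), a compound that damages DNA. The labels sort 30 samples of male C57BL/6J mice by pathology into normal (n = 3), hyperplasia (n = 8), dysplasia (n = 7), carcinoma in situ (n = 6) and invasive carcinoma (n = 6). A 4NQO treatment at 100 ug/mL over 10 weeks, begun at 6 weeks of age, is written for every sample, normal ones among them, and oral squamous cell carcinoma is given as the tissue of all. The labels name neither the site in the mouth nor separate animals, so the p-values below measure the spread between these samples. The letter of a sample code follows stage (A marks hyperplasia, B dysplasia, C either carcinoma stage and D normal tissue), so a batch that followed the letter cannot be told apart from stage except between the carcinoma stages.

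Levels are in CPM, counts of a gene scaled to library size with TMM factors, and are given with the SD over samples. A log2 fold change is always the later over the earlier stage, with ± 1 standard error (SE), and a gene is called changed at an edgeR adjusted p under 0.05. A marker score in a model is the mean log2 CPM of the tested markers of a list, not their summed CPM. The libraries held 17725604 to 28023098 counts, and the lowest count of any of the 10 genes in any sample was 284, for Casp8. The 4 comparisons with normal tissue share the same 3 normal samples.

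The squamous lineage was present in every sample: the 13 squamous epithelium markers summed to between 43450 and 76670 CPM, with none at 0 in every sample. In invasive carcinoma over normal, 9 of them were higher and 1 lower, beside 46.1% of all tested genes called (23.4% higher, 22.7% lower). Their median log2 fold change was 0.69. The squamous sums had medians of 52530 CPM in normal tissue, 57720 (hyperplasia), 71090 (dysplasia), then 55150 at the in situ stage and 60120 CPM in invasive carcinoma. Other tissue was present too and moved with stage. The 13 skeletal muscle markers had median sums of 51090 CPM in normal tissue, 38150 (hyperplasia), 33970 (dysplasia), then 30970 at the in situ stage and 27780 CPM in invasive carcinoma. The 15 leukocyte markers had median sums of 67.2 CPM in normal tissue, 103 (hyperplasia), 372 (dysplasia), then 878 at the in situ stage and 1895 CPM in invasive carcinoma. Endothelial markers had a median sum of 193 CPM in invasive carcinoma and 384 CPM in normal tissue, and fibroblast markers had 858 CPM in invasive carcinoma and 1495 CPM in normal tissue, while salivary gland markers ran from 18.7 to 35730 CPM with wide spread inside every stage. In such bulk samples a change in the share of a cell type and a change of RNA per cell cannot be told apart.

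These genes act in a few connected circuits of the stratified squamous epithelium. Trp53 encodes p53, a transcription factor that arrests or kills cells with damaged DNA, and Casp8 encodes the caspase that starts death receptor apoptosis and restrains necroptosis. Hras and Pik3ca encode a growth factor GTPase and the catalytic subunit of a lipid kinase. Fat1, a very large cadherin, and Ajuba, a LIM scaffold of cell junctions, feed into Hippo signalling, which controls the YAP and TEAD transcription factors. Nsd1 and Kmt2d encode histone methyltransferases, Fbxw7 encodes the substrate receptor of a ubiquitin ligase, and Rb1 encodes the protein that holds E2F factors in check.

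Promoters are shown for Ajuba and Fat1, which feed into the pathway that ends in TEAD factors, and for Hras, a member called in carcinoma with a window of another kind. The windows of Kmt2d, Pik3ca and Fbxw7 also held searched motifs, among them 4 GC boxes in that of Kmt2d. RefSeq start sites on GRCm38.p6 gave a window of 250 bases upstream for 8 of the 10 genes. Searched on both strands, counting overlapping matches, were GC box GGGCGG, E2F TTTCCCGC and TTTGGCGC, ETS CCGGAAGT, AP-1 TGANTCA, TEAD GGAATG, CRE TGACGTCA, E-box CACGTG and an interferon-stimulated response element. Capitals mark the TEAD letters in the Ajuba and Fat1 windows, and the GC boxes in the Hras window, each on either strand.
Ajuba, chr14:54577662-54577911, minus strand: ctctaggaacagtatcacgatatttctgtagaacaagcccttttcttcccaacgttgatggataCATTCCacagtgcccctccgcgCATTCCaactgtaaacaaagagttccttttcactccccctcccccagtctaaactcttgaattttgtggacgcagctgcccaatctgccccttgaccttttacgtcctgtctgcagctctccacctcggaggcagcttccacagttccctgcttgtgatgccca
Fat1, chr8:44949958-44950207, plus strand: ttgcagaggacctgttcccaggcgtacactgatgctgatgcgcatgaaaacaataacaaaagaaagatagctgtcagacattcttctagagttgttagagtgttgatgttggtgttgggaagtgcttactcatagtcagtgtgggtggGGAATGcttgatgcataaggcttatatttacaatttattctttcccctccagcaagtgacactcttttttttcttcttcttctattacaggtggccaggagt
Hras, chr7:141194005-141194254, minus strand: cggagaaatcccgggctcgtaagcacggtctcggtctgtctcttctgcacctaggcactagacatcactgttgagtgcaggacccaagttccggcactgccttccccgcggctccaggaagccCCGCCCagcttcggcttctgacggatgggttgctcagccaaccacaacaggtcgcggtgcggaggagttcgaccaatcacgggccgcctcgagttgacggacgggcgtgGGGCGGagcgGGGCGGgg
The TEAD letters lay 186 to 181 and 164 to 159 bases before the Ajuba start, both read from the opposite strand, and 102 to 97 bases before the Fat1 start, a RefSeq start that lies inside the GENCODE interval of the gene. They occurred in 12.6% of 32536 distinct promoter windows of this length. The Hras window held 3 GC boxes, a motif found in 33.0% of windows, and the start of Lrrc56 lay within 1000 bases on the opposite strand. The windows of Trp53 and Casp8 held none of the 9 searched strings. The Casp8 window and those of Fbxw7 lie inside the GENCODE interval of their gene, so they are not the region before it. These matches describe letters, not bound sites.

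Ranked per kilobase of exon over all 30 samples, Hras was the most abundant of the 10 at 25.7 ± 2.99 CPM per kb. Ajuba followed at 18.1 ± 3.64 and Trp53 at 13.6 ± 2.01 CPM per kb. Pik3ca at 7.76 ± 0.531, Rb1 at 7.47 ± 0.799 and Casp8 at 7.45 ± 0.990 CPM per kb lay closer together than their spread. Nsd1 at 6.21 ± 0.616, Fat1 at 5.38 ± 1.34, Fbxw7 at 4.39 ± 0.488 and Kmt2d at 3.03 ± 0.445 CPM per kb closed the order, in which Nsd1 and Fat1 overlapped within their spread and so did Fat1 and Fbxw7. The whole range of stage means was modest: the highest stage mean was 1.69 times the lowest for Ajuba and 1.57 times for Trp53, against a median of 1.44 over all tested genes. It was 1.12 times for Pik3ca and for Fbxw7.

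Trp53 was higher at every later stage than in normal tissue. The gene (ENSMUSG00000059552.13) lies at chr11:69580359-69591873 on the plus strand of GRCm38, as GENCODE M21 places it, like the other positions given here. It stood at 37.1, 38.0 and 44.1 CPM in the normal samples. The lowest, median and highest values were 46.9, 52.6 and 56.9 CPM in hyperplasia, 51.5, 56.5 and 60.9 in dysplasia, 52.3, 59.0 and 64.7 in carcinoma in situ, and 53.5, 60.2 and 74.3 in invasive carcinoma. All 27 later samples therefore lay above all 3 normal samples. Trp53 rose by 0.39 ± 0.09 on the log2 scale in hyperplasia (edgeR adjusted p = 0.00543) and 0.49 ± 0.09 in dysplasia (edgeR adjusted p = 0.00085). It rose by 0.57 ± 0.10 in carcinoma in situ (edgeR adjusted p = 0.000108) and 0.65 ± 0.10 in invasive carcinoma (edgeR adjusted p = 1.69e-05). Between the carcinoma stages and the premalignant stages it averaged 60.7 ± 7.16 CPM in carcinoma (n = 12) and 53.8 ± 3.81 CPM in hyperplasia with dysplasia (n = 15), a log2 fold change of 0.17 ± 0.05 (edgeR adjusted p = 0.00947). None of the steps between neighbouring stages passed the test for Trp53. Without normal sample D02 the hyperplasia call was lost, with a log2 fold change of 0.34 and an edgeR adjusted p of 0.078.

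Casp8 (ENSMUSG00000026029.14, chr1:58795374-58847503, plus strand) also stood above normal tissue at each stage. The normal samples had 16.9, 16.0 and 16.2 CPM. In hyperplasia the lowest, median and highest values were 19.9, 21.6 and 24.5 CPM, in dysplasia 18.9, 20.8 and 23.3, in carcinoma in situ 20.2, 21.7 and 23.8, and in invasive carcinoma 21.1, 24.3 and 30.4. No later sample overlapped the normal samples. The log2 fold changes over normal were 0.41 ± 0.09 in hyperplasia (edgeR adjusted p = 0.00307) and 0.35 ± 0.09 in dysplasia (edgeR adjusted p = 0.00692). They were 0.41 ± 0.09 in carcinoma in situ (edgeR adjusted p = 0.00165) and 0.58 ± 0.09 in invasive carcinoma (edgeR adjusted p = 3.98e-05). Carcinoma over premalignant samples gave 0.11 ± 0.05 with an edgeR adjusted p of 0.074, which missed the threshold. Invasive carcinoma over carcinoma in situ gave 0.18 ± 0.07, with a 95% interval of 0.02 to 0.33 and an edgeR adjusted p of 0.63. Leaving out normal sample D02 ended the Casp8 calls in hyperplasia and dysplasia, at edgeR adjusted p = 0.0532 and 0.0746.

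**Figure D1:**
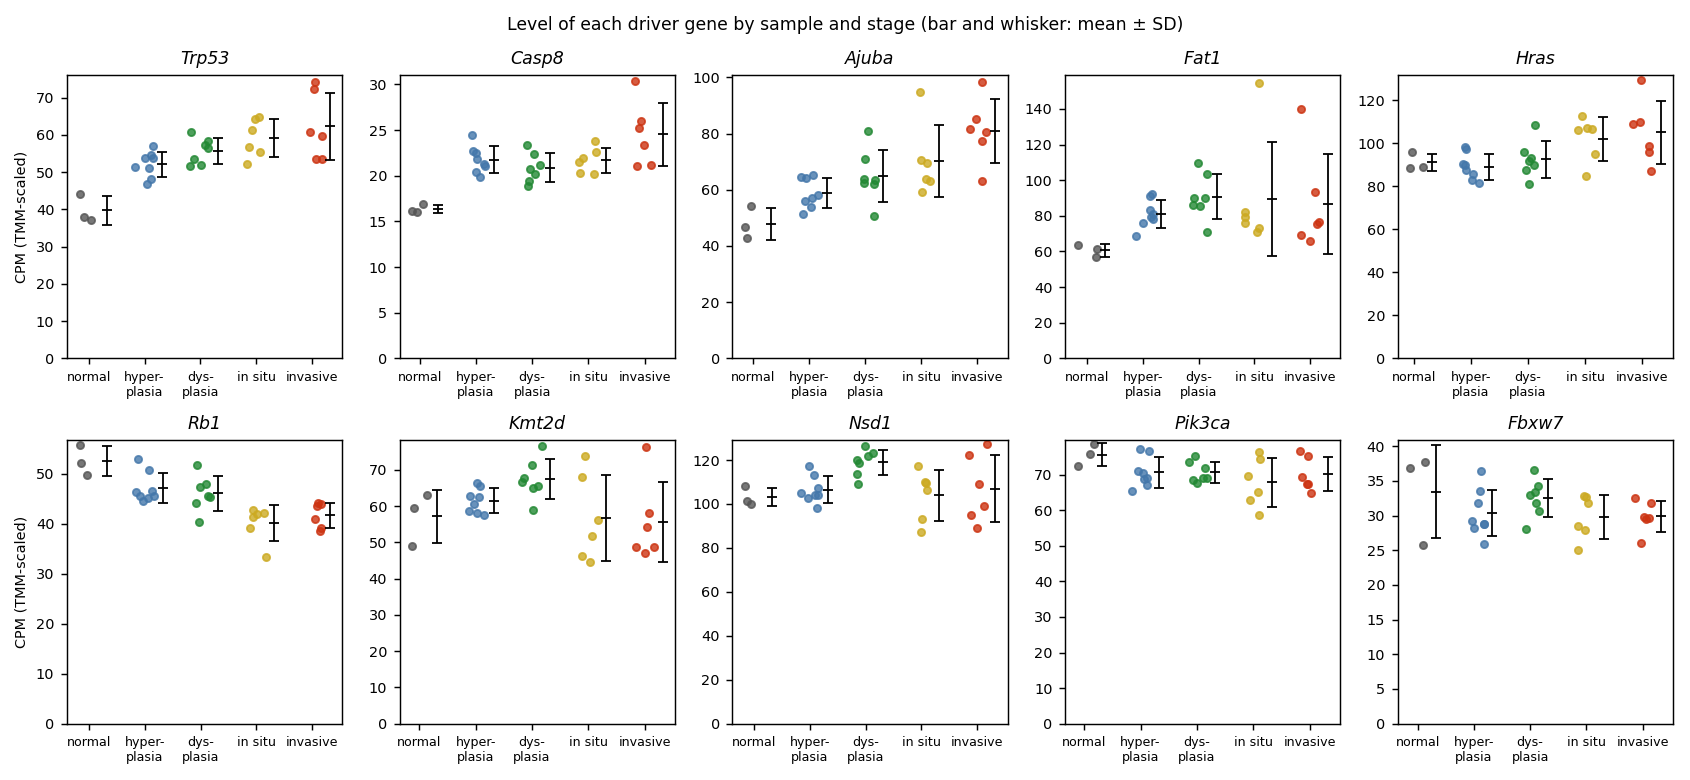
CPM of each of the 10 genes (vertical axes, each from 0) in every sample, grouped by stage from normal tissue to invasive carcinoma; bars with whiskers are the mean ± SD. Trp53 and Casp8 lie above their 3 normal samples in every later sample, Rb1 lies below them in all 12 carcinoma samples, and Fat1 has single high samples at 154 CPM (carcinoma in situ) and 140 CPM (invasive carcinoma).

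Ajuba (ENSMUSG00000022178.11, chr14:54567472-54577558, minus strand) had the widest range of stage means among the 10. Its normal samples had 54.1, 42.8 and 46.6 CPM. It ran from 51.3 through a median of 57.5 to 65.3 CPM in hyperplasia, from 50.5 through 63.6 to 81.0 in dysplasia, from 59.1 through 66.7 to 94.9 in carcinoma in situ and from 63.1 through 81.0 to 98.2 in invasive carcinoma. All 12 carcinoma samples lay above the normal ones, while 6 of 8 hyperplasia and 6 of 7 dysplasia samples did. Over normal tissue the log2 fold change was 0.44 ± 0.13 in dysplasia (edgeR adjusted p = 0.0169), 0.55 ± 0.14 in carcinoma in situ (edgeR adjusted p = 0.0027) and 0.76 ± 0.14 in invasive carcinoma (edgeR adjusted p = 0.000108). In hyperplasia it was 0.30 ± 0.13 and missed the threshold (edgeR adjusted p = 0.122), but passed it when only these groups were fitted (edgeR adjusted p = 0.0418) and with limma-voom (adjusted p = 0.00811). Ajuba was also higher in carcinoma, at 75.6 ± 12.8 CPM, than in premalignant samples, at 61.6 ± 7.82 CPM, by 0.29 ± 0.07 on the log2 scale (edgeR adjusted p = 0.00295). The dysplasia call was lost without normal sample D02 or D03, at edgeR adjusted p = 0.159 and 0.0785.

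Fat1 (ENSMUSG00000070047.14, chr8:44935447-45052257, plus strand) lay higher in all 27 later samples than in the 3 normal samples, which had 56.8, 61.6 and 63.6 CPM. The lowest, median and highest values were 68.6, 80.4 and 92.4 CPM in hyperplasia, 70.9, 89.9 and 109 in dysplasia, 71.0, 77.7 and 154 in carcinoma in situ, and 65.9, 75.8 and 140 in invasive carcinoma. The medians thus peaked in dysplasia, and each carcinoma stage held a single sample far above the rest. The log2 fold change over normal was 0.58 ± 0.21 in dysplasia (edgeR adjusted p = 0.0381), 0.56 ± 0.21 in carcinoma in situ (edgeR adjusted p = 0.0374) and 0.52 ± 0.21 in invasive carcinoma (edgeR adjusted p = 0.0459). In hyperplasia it was 0.42 ± 0.20 (edgeR adjusted p = 0.161), with a 95% interval of 0.01 to 0.84. The hyperplasia value passed when only these groups were fitted (edgeR adjusted p = 0.00565) and with limma-voom (adjusted p = 0.0284). It also passed with replicate numbers as a block (edgeR adjusted p = 0.0188). Leaving out any normal sample ended the calls in dysplasia and both carcinoma stages, at edgeR adjusted p of 0.0782 to 0.138. Without sample C02 the value in carcinoma in situ was 0.33 (edgeR adjusted p = 0.133), and without C12 that in invasive carcinoma was 0.33 (edgeR adjusted p = 0.147).

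Hras (ENSMUSG00000025499.18, chr7:141189105-141194005, minus strand) was higher in carcinoma than in premalignant tissue. The normal samples had 88.3, 95.8 and 89.1 CPM. The lowest, median and highest values were 81.4, 88.7 and 98.0 CPM in hyperplasia, 80.9, 91.8 and 109 in dysplasia, 84.8, 106 and 113 in carcinoma in situ, and 87.1, 104 and 130 in invasive carcinoma. The stages overlap, and 4 of 12 carcinoma samples exceeded every premalignant sample. Hras averaged 104 ± 12.2 CPM in carcinoma (n = 12) and 90.7 ± 7.29 CPM in premalignant samples (n = 15), a log2 fold change of 0.19 ± 0.05 (edgeR adjusted p = 0.00735). With a squamous marker score in the model it was 0.06 (edgeR adjusted p = 0.599). Against normal tissue edgeR called no stage, and the value in invasive carcinoma was 0.21 ± 0.10 (edgeR adjusted p = 0.0927). That value passed with limma-voom (adjusted p = 0.0425) and without sample C05 (edgeR adjusted p = 0.0321).

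Rb1 (ENSMUSG00000022105.6, chr14:73183673-73325822, minus strand) was the member that fell against normal tissue. It stood at 55.7, 49.7 and 52.1 CPM in the normal samples. Its lowest, median and highest values were 44.5, 46.0 and 52.9 CPM in hyperplasia, 40.4, 45.6 and 51.8 in dysplasia, 33.4, 41.7 and 42.8 in carcinoma in situ, and 38.5, 42.2 and 44.1 in invasive carcinoma. All 12 carcinoma samples lay below the lowest normal sample. Rb1 fell by 0.39 ± 0.08 on the log2 scale in carcinoma in situ (edgeR adjusted p = 0.000465) and by 0.33 ± 0.08 in invasive carcinoma (edgeR adjusted p = 0.000921). It averaged 40.9 ± 3.04 CPM in carcinoma and 46.7 ± 3.17 CPM in premalignant samples, a log2 fold change of -0.19 ± 0.04 (edgeR adjusted p = 0.00116). In dysplasia the change from normal was -0.19 ± 0.07 (edgeR adjusted p = 0.0619), and carcinoma in situ over dysplasia gave -0.20 ± 0.06 (edgeR adjusted p = 0.052). DESeq2 called both, at adjusted p = 0.0394 and 0.0265. The exons of Rb1 share 408 bases with Lpar6 and 488 with Rcbtb2, both on the opposite strand, and the strand setting of the counting is not given in the sources used here, so reads on those bases cannot be told apart. Rcbtb2 fell too, by 0.51 ± 0.10 in carcinoma in situ over normal (edgeR adjusted p = 0.000469), while Lpar6 stood at 0.31 ± 0.14 there (edgeR adjusted p = 0.0905).

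Kmt2d (ENSMUSG00000048154.17, chr15:98831669-98871204, minus strand) was at 63.03, 59.4 and 49.0 CPM in the normal samples. The lowest, median and highest values were 57.5, 61.4 and 66.4 CPM in hyperplasia, 59.0, 66.7 and 76.7 in dysplasia, 44.6, 53.9 and 73.9 in carcinoma in situ, and 47.1, 51.5 and 76.4 in invasive carcinoma. Of the 12 carcinoma samples, 8 lay below every premalignant sample. Kmt2d averaged 56.2 ± 10.9 CPM in carcinoma and 64.3 ± 5.30 CPM in premalignant samples, a log2 fold change of -0.20 ± 0.07 (edgeR adjusted p = 0.0369). That call was lost in 15 of 27 repeats that each left out a sample, with edgeR adjusted p up to 0.0805 in those. It was also lost with a marker score as a covariate, for muscle (edgeR adjusted p = 0.114), leukocytes (edgeR adjusted p = 0.234) or squamous epithelium (edgeR adjusted p = 0.447), and with replicate numbers as a block (edgeR adjusted p = 0.0798). Against normal tissue edgeR called Kmt2d at no stage, while limma-voom called it in dysplasia (adjusted p = 0.00962).

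Pik3ca (ENSMUSG00000027665.13, chr3:32397671-32468486), Nsd1 (ENSMUSG00000021488.8, chr13:55209782-55318325) and Fbxw7 (ENSMUSG00000028086.15, chr3:84815268-84979198), all on the plus strand, passed no comparison in the edgeR fit of all samples. Pik3ca ranged from 58.6 to 78.8 CPM over the 30 samples. Its log2 fold changes over normal lay between -0.16 ± 0.07 in carcinoma in situ and -0.10 ± 0.07 in hyperplasia. The 95% interval was -0.307 to -0.008 in carcinoma in situ (edgeR adjusted p = 0.09) and -0.26 to 0.04 in invasive carcinoma. Pik3ca passed as lower in carcinoma in situ over normal with limma-voom (adjusted p = 0.0261) and without sample C02 (edgeR adjusted p = 0.0343). Its spread inside a stage was 6.62% of the mean, against a median of 17.1% over tested genes. Nsd1 was highest in dysplasia, where it averaged 119 ± 5.81 CPM, against 103 ± 4.26 CPM in normal tissue, and all 7 dysplasia samples lay above the 3 normal samples. That difference, 0.21 ± 0.09, missed the threshold (edgeR adjusted p = 0.0991). With limma-voom, Nsd1 passed in dysplasia over normal (adjusted p = 0.0301) and over hyperplasia (adjusted p = 0.0133), in carcinoma in situ over dysplasia (adjusted p = 0.0216) and in carcinoma over premalignant samples (adjusted p = 0.0141). With only the groups compared in the fit, edgeR also called it in dysplasia over normal (adjusted p = 0.0495) and over hyperplasia (adjusted p = 0.0307). Fbxw7 averaged 29.9 ± 2.26 CPM in invasive carcinoma and 33.4 ± 6.72 CPM in normal tissue, where sample D01 held 25.7 CPM and the others 37.7 and 36.9 CPM. Without D01, Fbxw7 passed as lower in hyperplasia, carcinoma in situ and invasive carcinoma over normal, at edgeR adjusted p = 0.0431, 0.0239 and 0.0218. Limma-voom on all samples also called Fbxw7 lower in carcinoma in situ over normal (adjusted p = 0.0472).

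**Figure D2:**
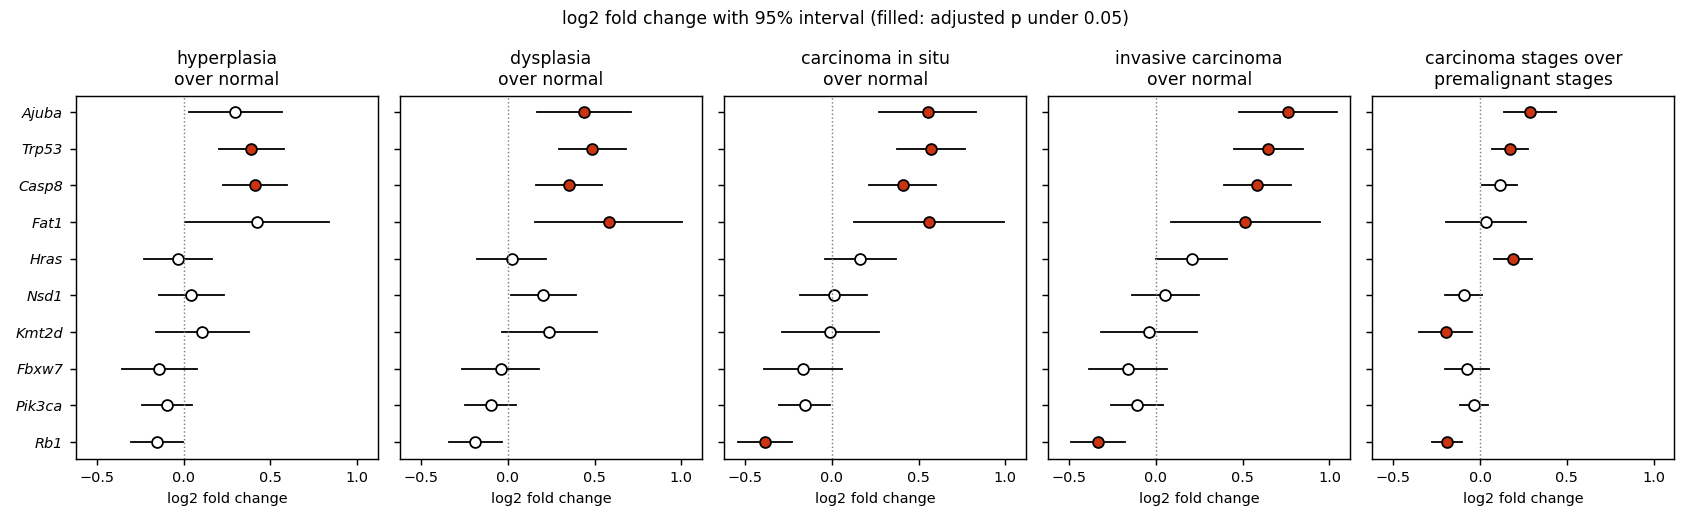
log2 fold change of each gene (horizontal axis, points) with its 95% interval (lines) in 5 comparisons, later over earlier stage; filled points passed an edgeR adjusted p of 0.05. Ajuba, Trp53, Casp8 and Fat1 are the filled points to the right of 0 in invasive carcinoma over normal, from 0.52 for Fat1 to 0.76 for Ajuba, and Rb1 at -0.33 is the filled point to the left.

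Counted over the 10 genes, hyperplasia over normal had 2 higher and 0 lower, beside 14.3% of all tested genes called (8.22% higher, 6.07% lower). Dysplasia over normal had 4 higher and 0 lower, beside 25.7% called (13.3% higher, 12.4% lower). Carcinoma in situ over normal had 4 higher and 1 lower, beside 37.6% called (19.4% higher, 18.2% lower). Invasive carcinoma over normal also had 4 higher and 1 lower, beside 46.1% called (23.4% higher, 22.7% lower). In that comparison the members' share of calls was near that of all tested genes. None of the counts in this paragraph, each over 10 members, was tested against these shares. Carcinoma over premalignant stages had 3 higher and 2 lower, beside 38.4% called (19.6% higher, 18.8% lower). The test for any difference among the 5 stages passed for Trp53, Casp8, Hras, Ajuba and Rb1, beside 53.2% of all tested genes. Over the 5 stages too, the members' share was near that of all tested genes.

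Steps between neighbouring stages called none of the 10 genes in the edgeR fit of all samples. With a muscle marker score (edgeR adjusted p = 0.0343) or a squamous marker score (edgeR adjusted p = 0.0375) as a covariate, or with muscle markers removed (edgeR adjusted p = 0.0491), Rb1 passed in carcinoma in situ over dysplasia. In dysplasia over hyperplasia, edgeR called 5.18% of all genes (2.99% higher, 2.19% lower). There 1 member and 3696 of all 17638 tested genes had an unadjusted edgeR p under 0.05. DESeq2 called 0 members and 1335 genes, and limma-voom 1 member and 3584 genes. In carcinoma in situ over dysplasia, edgeR called 5.47% of all genes (2.99% higher, 2.47% lower). There 3 members and 4112 of all tested genes had an unadjusted edgeR p under 0.05. DESeq2 called 1 member and 1471 genes, and limma-voom 2 members and 2241 genes. In invasive carcinoma over carcinoma in situ, edgeR called 0% of all genes. There 1 member and 1259 of all tested genes had an unadjusted edgeR p under 0.05. DESeq2 and limma-voom each called 0 members and 0 genes. Groups that did not overlap at all were seen for 3 members in hyperplasia over normal (14.6% of all tested genes), 4 in dysplasia over normal (20.6%), 5 in carcinoma in situ over normal (26.6%) and 5 in invasive carcinoma over normal (32.4%). They were seen for 0 members in dysplasia over hyperplasia (1.92%), carcinoma in situ over dysplasia (1.11%), invasive carcinoma over carcinoma in situ (0.181%) and carcinoma over premalignant stages (0.085%).

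Summed skeletal muscle markers ran against the members that rose. Over the 30 samples with stage means removed, their Pearson r was -0.78 with Ajuba, -0.74 with Casp8 and -0.62 with Fat1. It was -0.48 with Trp53 and with Hras. It was 0.56 with Fbxw7, 0.20 with Kmt2d, 0.00 with Rb1, -0.03 with Pik3ca and -0.30 with Nsd1. For leukocyte markers the same r was 0.12 with Ajuba, -0.04 with Casp8, -0.01 with Fat1, -0.13 with Trp53 and 0.20 with Hras. For endothelial markers it was -0.45 with Ajuba and with Casp8, -0.075 with Fat1, -0.02 with Trp53 and -0.63 with Hras. For summed squamous epithelium markers it was 0.30 with Ajuba, 0.25 with Casp8, 0.07 with Fat1, 0.40 with Trp53 and 0.15 with Hras. Each pair of values shares a library and its total. With a muscle marker score in the model, Trp53 and Casp8 kept their calls in invasive carcinoma, carcinoma in situ and hyperplasia over normal, Trp53 in dysplasia too, and Ajuba and Rb1 in both carcinoma stages. In that model, the dysplasia values were 0.15 for Ajuba (edgeR adjusted p = 0.466), 0.20 for Casp8 (edgeR adjusted p = 0.192) and 0.25 for Fat1 (edgeR adjusted p = 0.512). Fat1 came to 0.27 in carcinoma in situ (edgeR adjusted p = 0.359) and 0.06 in invasive carcinoma (edgeR adjusted p = 0.879). Trp53 in carcinoma over premalignant samples came to 0.12 (edgeR adjusted p = 0.0696). With a leukocyte marker score in the model, the log2 fold changes of Trp53 over normal were 0.41 to 0.68 and none of the members passed against normal (edgeR adjusted p of 0.0942 to 0.18 for Trp53). Of all 17638 tested genes, that model called 173 (hyperplasia), 83 (dysplasia), then 0 at the in situ stage and 16 at the invasive stage. Without the score these counts were 2519, 4540, 6630 and 8127, so the lost calls do not single out the members. With a squamous marker score in the model, the hyperplasia calls of Trp53 and Casp8 and both carcinoma calls of Rb1 over normal held. Trp53 and Casp8 lost their calls at the later stages, with 0.32 for Trp53 (edgeR adjusted p = 0.178) and 0.23 for Casp8 (edgeR adjusted p = 0.351) in invasive carcinoma. In carcinoma over premalignant samples that model gave 0.03 for Trp53 (edgeR adjusted p = 0.814) and 0.01 for Ajuba (edgeR adjusted p = 0.93). Against normal, Fat1 turned to -0.35 in invasive carcinoma (edgeR adjusted p = 0.533) while Ajuba came to 0.11 there (edgeR adjusted p = 0.782). The part that tissue make-up has in the members' levels was not tested beyond these fits.

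**Figure D3:**
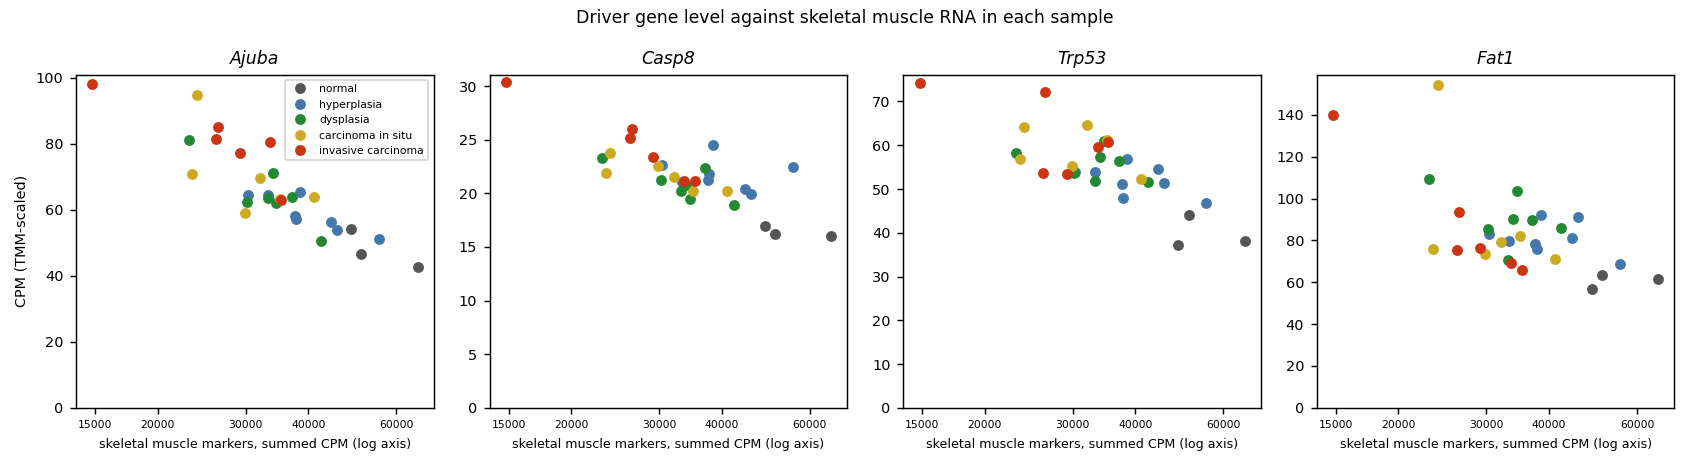
CPM of Ajuba, Casp8, Trp53 and Fat1 (vertical axes, from 0) against the summed CPM of 13 skeletal muscle markers (horizontal log axis) in each of the 30 samples, colored by stage. Sample C12, an invasive carcinoma, has the least muscle RNA at 14820 CPM and the highest Ajuba at 98.2 CPM, and normal sample D02 has the most muscle RNA at 66140 CPM and the lowest Ajuba at 42.8 CPM.

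Genes called among the partners of p53 went in both directions. Of 17 listed and tested genes, 6 were higher and 2 lower in invasive carcinoma over normal, beside 46.1% of all tested genes called (23.4% higher, 22.7% lower), with a median log2 fold change of 0.27, against 0.02 over all tested genes. Cdkn2a, which encodes an inhibitor of cyclin-dependent kinases and the p53 stabiliser ARF, averaged 6.79 ± 1.16 CPM in invasive carcinoma and 0.168 ± 0.0525 CPM in normal tissue. Pmaip1, the pro-apoptotic p53 target Noxa, averaged 10.2 ± 6.52 CPM in invasive carcinoma and 0.826 ± 0.371 CPM in normal tissue. Trp53inp1, another stress-induced p53 target, was higher in hyperplasia, at 90.7 ± 12.4 CPM against 46.0 ± 6.56 CPM in normal tissue (edgeR adjusted p = 0.000508), and did not pass at later stages. Mdm2, which encodes the ligase that degrades p53, passed in no comparison with normal and averaged 47.0 ± 3.79 CPM in invasive carcinoma and 49.0 ± 3.46 CPM in normal tissue. Of the relatives, Trp63, a master regulator of stratified epithelium, rose by 0.84 ± 0.17 in invasive carcinoma (edgeR adjusted p = 0.000361). Trp73, named after its values were seen, fell by 0.61 ± 0.18 there (edgeR adjusted p = 0.0074).

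Death receptor and necroptosis genes, the setting in which Casp8 acts, were mostly higher where they were called. Of 20 listed and tested genes, 8 were higher and 0 lower in hyperplasia over normal, where 8.22% of all tested genes were higher. In invasive carcinoma over normal 11 were higher and 1 lower, where 23.4% of all tested genes were higher. The median log2 fold change in invasive carcinoma was 0.44, against 0.02 over all tested genes. Mlkl, the executioner of necroptosis, averaged 8.62 ± 1.26 CPM in invasive carcinoma and 2.401 ± 0.650 CPM in normal tissue, a log2 fold change of 1.83 ± 0.23 (edgeR adjusted p = 2.17e-06). Ripk3, the kinase above it, rose by 1.16 ± 0.17 (edgeR adjusted p = 1.61e-05) and was named after its values were seen. Tnfrsf10b, the mouse TRAIL receptor, averaged 8.60 ± 0.985 CPM in hyperplasia and 3.29 ± 0.626 CPM in normal tissue (edgeR adjusted p = 8.53e-05). Tnfrsf1a, the main TNF receptor, averaged 172 ± 22.3 CPM in invasive carcinoma and 102 ± 6.11 CPM in normal tissue (edgeR adjusted p = 1.05e-05). Birc3, an inhibitor of apoptosis induced by NF-kB, rose by 1.09 in the same comparison. Leukocytes also express several of these genes, and the leukocyte marker sums given above moved with them; their part was not tested.

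Called Ras partners were split, and called PI3K partners were lower in each comparison with normal. Of 27 Ras partners, 5 were higher and 5 lower in invasive carcinoma over normal, beside 46.1% of all tested genes called, with a median log2 fold change of 0.03. Nras rose by 0.37 ± 0.09 (edgeR adjusted p = 0.00225). Spry1, a feedback inhibitor of receptor signalling, fell by 0.66 ± 0.12 (edgeR adjusted p = 0.000103), and Spred2, an inhibitor of Ras signalling, fell by 0.33 ± 0.08 (edgeR adjusted p = 0.000907). Of 18 PI3K partners, 0 were higher and 7 lower in invasive carcinoma over normal, where 22.7% of all tested genes were lower, with a median log2 fold change of -0.18. Mtor, the growth kinase downstream, fell by 0.45 ± 0.08 (edgeR adjusted p = 8.54e-05), Akt2 by 0.58 ± 0.12 (edgeR adjusted p = 0.000342) and the regulatory subunit gene Pik3r3 by 0.89 ± 0.17 (edgeR adjusted p = 0.000232). Akt1 was at 0.08 ± 0.06 there (edgeR adjusted p = 0.285) and rose by 0.18 ± 0.03 in carcinoma over premalignant samples (edgeR adjusted p = 0.000271). Of the list, 2 were higher and 4 lower in carcinoma over premalignant samples, where 19.6% of all tested genes were higher and 18.8% lower. Skeletal muscle markers fell in invasive carcinoma over normal, with 0 higher and 11 lower of 13, and the part of muscle in these values was not tested.

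Relatives of Ajuba and Fat1 did not all move together. Of 29 Fat and Hippo genes, 4 were higher and 9 lower in invasive carcinoma over normal, beside 46.1% of all tested genes called, with a median log2 fold change of -0.17. Limd1, a LIM protein of the Ajuba family, averaged 68.1 ± 4.98 CPM in invasive carcinoma and 94.8 ± 4.99 CPM in normal tissue, and fell by 0.48 ± 0.07 (edgeR adjusted p = 2.59e-05). Wtip, the other family member, rose by 0.68 ± 0.15 (edgeR adjusted p = 0.000581). Per kb, Ajuba's share of the family's transcripts, given without a test, was 40.5 ± 2.54% in normal tissue, 50.8 ± 3.06% (hyperplasia), 51.7 ± 4.30% (dysplasia), then 53.7 ± 3.56% at the in situ stage and 56.6 ± 3.73% in invasive carcinoma. Fat2, the other abundant Fat cadherin of this tissue, rose by 0.74 ± 0.16 in invasive carcinoma over normal (edgeR adjusted p = 0.000644). Ccn1, a target of YAP and TEAD, fell by 0.64 in hyperplasia and by 0.82 in dysplasia and did not pass in either carcinoma stage over normal.

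The retinoblastoma family split as well. Rbl1, which encodes the pocket protein p107, rose by 1.11 ± 0.15 in invasive carcinoma over normal (edgeR adjusted p = 7.44e-06), at 35.0 ± 5.72 CPM against 16.2 ± 2.58 CPM. Rbl2, which encodes p130, fell by 0.65 ± 0.12 (edgeR adjusted p = 0.000153), at 42.9 ± 5.06 CPM in invasive carcinoma against 67.6 ± 19.8 CPM in normal tissue. Per kb, Rb1 made up 37.6 ± 1.85% of the family's transcripts in invasive carcinoma and 43.2 ± 3.43% in normal tissue, while Rbl1 made up 31.6 ± 4.32% in invasive carcinoma and 13.5 ± 3.28% in normal tissue, given without a test. Of 22 RB pathway genes, 10 were higher and 5 lower in invasive carcinoma over normal, beside 46.1% of all tested genes called (23.4% higher). Cdkn2b, an inhibitor of the kinases that phosphorylate RB, rose by 0.87 ± 0.13 (edgeR adjusted p = 2.55e-05), and Tfdp1, the partner of E2F factors, by 0.65 ± 0.11 (edgeR adjusted p = 5.52e-05). Of 16 E2F target genes of DNA replication and division, 14 were higher in hyperplasia over normal (8.22% of all tested genes) and 9 in dysplasia over normal (13.3%). In carcinoma in situ over normal 16 were higher (19.4%) and in invasive carcinoma over normal 15 (23.4%), and 0 were lower in any of these 4 comparisons. Mcm5, a subunit of the replicative helicase, averaged 41.4 ± 9.74 CPM in invasive carcinoma and 11.2 ± 2.11 CPM in normal tissue (edgeR adjusted p = 1.46e-06).

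**Figure D4:**
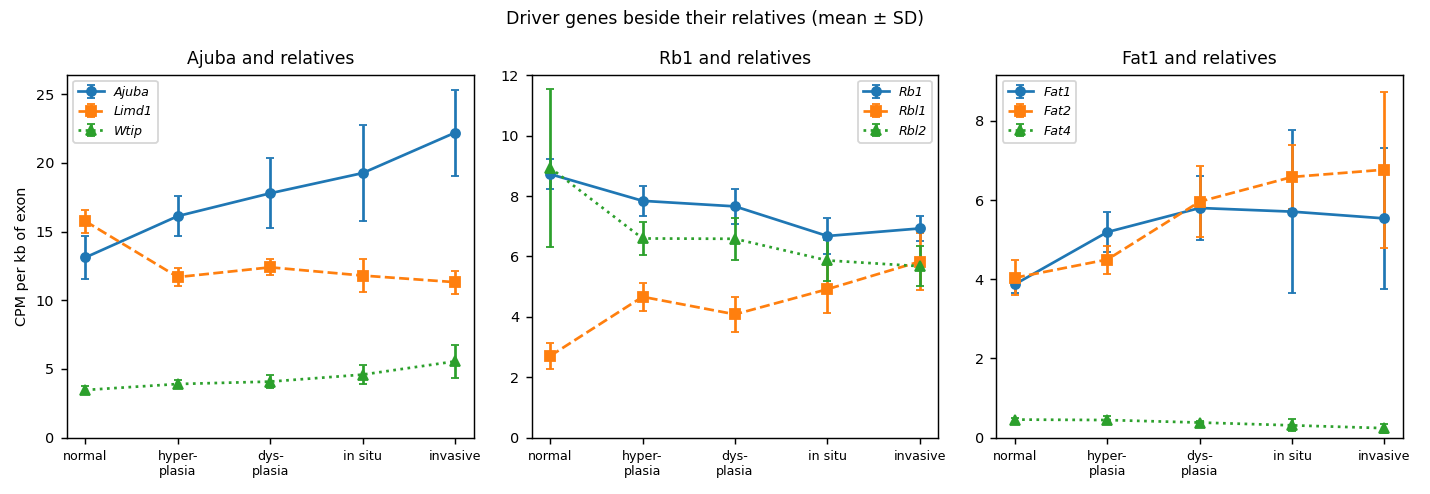
Mean ± SD of CPM per kb of exon (vertical axes, from 0) by stage for Ajuba, Rb1 and Fat1 beside their relatives. Ajuba rises to 22.2 CPM per kb in invasive carcinoma, against 13.1 in normal tissue, while Limd1 lies lower at every later stage than in normal tissue, and Rbl1 lies higher and Rbl2 lower.

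Chromatin and ubiquitin ligase partners called against normal tissue were mostly higher. Of 21 tested histone methylation genes, 7 were higher and 0 lower in invasive carcinoma over normal, beside 46.1% of all tested genes called (23.4% higher). In carcinoma over premalignant samples 3 were higher and 5 lower, where 19.6% of all tested genes were higher and 18.8% lower. Nsd2, a relative of Nsd1, rose by 0.50 ± 0.10 in invasive carcinoma over normal (edgeR adjusted p = 0.000214). Kmt2c, the closest relative of Kmt2d, fell by 0.18 ± 0.06 in carcinoma over premalignant samples (edgeR adjusted p = 0.0136). Of 17 tested SCF and Fbxw7 substrate genes, 8 were higher and 2 lower in invasive carcinoma over normal, beside 46.1% of all tested genes called. Among genes whose proteins Fbxw7 marks for destruction, Ccne1 rose by 2.16 ± 0.34 (edgeR adjusted p = 3.26e-05) and Myc by 0.91 ± 0.15 (edgeR adjusted p = 3.43e-05). Hif1a averaged 470 ± 223 CPM in invasive carcinoma and 83.7 ± 7.75 CPM in normal tissue (edgeR adjusted p = 3.22e-06). Among 43 other genes mutated in head and neck carcinoma, 15 were higher and 5 lower in invasive carcinoma over normal, beside 46.1% of all tested genes called, with a median log2 fold change of 0.16.

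The genes most like each member were those with the highest Pearson r of log2 CPM over the 30 samples, which share stage and tissue make-up. Predicted genes, genes with provisional names such as Rik names, and pseudogenes were left out of this search. For Ajuba the nearest genes were Epha2 (r = 0.93), an ephrin receptor of epithelium, Fam83g (r = 0.92) and Taf4b (r = 0.91). After stage means were removed, Ajuba and Epha2 still had r = 0.85. For Hras they were Avpi1 (r = 0.92), Atox1 (r = 0.90) and Eif3k (r = 0.90), and for Nsd1 Dhx29, Huwe1 and Bptf (r = 0.90 to 0.91). For Trp53 they were Tubgcp4 (r = 0.91), the splicing regulator Ptbp1 (r = 0.90) and Eftud2 (r = 0.90). For Fat1 they were Smchd1 (r = 0.85), the non-muscle myosin gene Myh9 (r = 0.85) and Mdn1 (r = 0.84), and for Casp8 Slc35f6 (r = 0.88), the helicase gene Mcm5 (r = 0.86) and Tmem185b (r = 0.86). For Rb1 they were Rb1cc1 (r = 0.84), Ube3a (r = 0.82) and Acvr2a (r = 0.82). Pik3ca was nearest to Dnm1l (r = 0.78), Kmt2d to Fbrsl1 (r = 0.80) and Fbxw7 to Homer1 (r = 0.77), the lowest nearest values of the 10. Among the members themselves, Casp8 and Ajuba had r = 0.80 and Trp53 and Ajuba r = 0.78.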

How the data were processed

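RNA sequencing libraries of 30 mouse samples were made with a stranded mRNA kit, per the labels' protocols, and the submitters' processing notes name cutadapt 2.4, STAR 2.7.2a and the build GRCm38. Counting tool, strand setting and annotation release are not given in the sources used here. The authors deposited raw counts per Ensembl gene, and 55227 (99.53%) of 55487 identifiers matched GENCODE M21. The counts were tested with edgeR 4.0.16 (quasi-likelihood, TMM, default expression filter, robust) over all 30 samples, in 8 pairwise comparisons and over the 5 stages, with two-sided p-values and Benjamini-Hochberg adjustment within each. Scripts were checked on simulated counts. A further comparison planned for Hras is not reported here. The genes named are every member, the partners with the 4 smallest p of each list, the close relatives and each member's 3 most correlated genes. Members, lists and comparisons were chosen with earlier results of these data known. Tried as alternatives were upper-quartile or RLE factors, no filter, DESeq2 1.42.0, limma-voom with limma 3.58.1, a threshold of 0.01, fits of only the groups compared, a replicate block, muscle markers removed, each sample left out, and scores of muscle and, added after seeing the data, salivary, squamous and leukocyte markers as covariates.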

Additional observations from a re-analysis of the deposited data

Results flagged for a closer look

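In 3 of 40 groups of a member's values within a stage, a sample stood far from the others, and chance alone flags about 1 group in 20 by this gap measure. Fat1 reached 154.4 CPM in carcinoma in situ sample C02, where the other 5 samples ran from 71.0 to 82.2 CPM. Ajuba reached 94.85 CPM in the same sample, where the next highest was 70.7 CPM. Fat1 reached 140.1 CPM in invasive carcinoma sample C12, where the next highest was 93.5 CPM. Skeletal muscle markers summed to 23960 CPM in C02, where the stage ran from 23480 to 41050 CPM, and to 14820 CPM in C12, the lowest sample of its stage, and the part of muscle in these values was not tested.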

How the results depend on the processing

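Of 268 called values of members under alternatives other than leaving out a sample, 213 kept direction and call, 51 lost the call and 4 changed direction, and of 287 leave-one-out values 253 kept both and 34 lost the call. The reversals came with the squamous score: over normal, Fat1 came to -0.0024 (dysplasia), -0.1415 (carcinoma in situ) and -0.3472 (invasive carcinoma), and Ajuba at -0.0267 in dysplasia. Among pairwise values that were not called, 67 changed sign under alternatives other than leaving out a sample. Salivary score, RLE factors, upper-quartile factors, DESeq2 and removal of muscle markers kept at least 20 of 21 called values each, and the leukocyte score kept 3.

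Counts of members called came to 0 in all 4 comparisons with normal, 3 in carcinoma over premalignant and 1 over the 5 stages with the leukocyte score. They came to 0, 1, 1, 1 and 2 in dysplasia, carcinoma in situ and invasive carcinoma over normal, carcinoma over premalignant and over the 5 stages with the squamous score. The muscle score left 1 in dysplasia over normal and 3 in carcinoma over premalignant, and an adjusted p under 0.01 left 2 in dysplasia. Carcinoma in situ over dysplasia had 1 with the muscle score, the squamous score, DESeq2 or muscle markers removed, and 2 with limma-voom. Hyperplasia over normal had 4 with limma-voom and 4 when only these groups were fitted, dysplasia over hyperplasia had 1 in each of these, and limma-voom gave 8 over the 5 stages. Over all genes, limma-voom called 4606 in hyperplasia over normal, 3584 in dysplasia over hyperplasia and 11275 of 17638 over the 5 stages. Fits of only the groups compared called 3231 genes in hyperplasia over normal and 2057 in dysplasia over hyperplasia.

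Counts over all genes moved as well. An adjusted p under 0.01 gave 987, 2004 and 3972 in hyperplasia, dysplasia and carcinoma in situ over normal, 301 in dysplasia over hyperplasia, 62 in carcinoma in situ over dysplasia and 4122 in carcinoma over premalignant. The muscle score gave 816, 3382 and 2556 in dysplasia, carcinoma in situ and invasive carcinoma over normal, 493 and 2468 in dysplasia over hyperplasia and carcinoma in situ over dysplasia, and 5788 over the 5 stages. The squamous score gave 393, 814, 520, 343, 1734 and 3359 in dysplasia, carcinoma in situ and invasive carcinoma over normal, dysplasia over hyperplasia, carcinoma over premalignant and the 5 stages. The leukocyte score gave 173, 83, 0 and 16 in the 4 comparisons with normal, 10 in carcinoma in situ over dysplasia, 2618 in carcinoma over premalignant and 3053 over the 5 stages. No filter gave 473 and 327, limma-voom 3584 and 2241, and fits of only the groups compared 2057 and 200 in dysplasia over hyperplasia and carcinoma in situ over dysplasia. Limma-voom gave 4606 and 6831 in hyperplasia and dysplasia over normal, and DESeq2 1471 in carcinoma in situ over dysplasia. The cause of these shifts was not tested.

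Leaving out each sample in turn gave 0 to 3 members in hyperplasia over normal, 1 to 5 in dysplasia, 4 to 5 in carcinoma in situ, 4 to 6 in invasive carcinoma, 0 to 2 in carcinoma in situ over dysplasia, 4 to 6 in carcinoma over premalignant, 4 to 7 over the 5 stages and 0 in the other steps. Over all genes it gave 926 to 2876, 1282 to 5308, 4238 to 7306 and 6121 to 8617 in the 4 comparisons with normal, the lowest each without D02. It gave 507 to 1486 in dysplasia over hyperplasia, 164 to 2201 in carcinoma in situ over dysplasia and 0 to 1 in invasive carcinoma over carcinoma in situ. In carcinoma over premalignant it gave 5858 to 7575 genes, and over the 5 stages 8124 to 9971. The Hras call over the 5 stages was lost in 12 of 30 such fits.

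The number in the sample codes was tried as a replicate block. Of 31 same-numbered pairs, 11 had correlated deviations over 0.1 (r from -0.564 to 0.512), and 2 of 7 dysplasia samples correlated best with the hyperplasia sample of their number. The labels name no separate animals, and these correlations cannot tell whether same-numbered samples share an animal. With the block, members called were 3, 4 and 5 in hyperplasia, dysplasia and carcinoma in situ over normal. They were 4 in carcinoma over premalignant and 5 over the 5 stages. Genes called with the block were 2136, 4218 and 5830 in hyperplasia, dysplasia and carcinoma in situ over normal. They were 282 in carcinoma in situ over dysplasia, 3987 in carcinoma over premalignant and 6897 over the 5 stages. No paired analysis was possible because the groups share fewer than 2 numbers in invasive carcinoma over normal or over carcinoma in situ.

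Each comparison with normal tissue rests on the same 3 normal samples.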
